A study of Rousettus aegyptiacus with 32 samples.

Results

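In the Egyptian fruit bat, Rousettus aegyptiacus, 2352 regions of open chromatin were shared by cerebellum and striatum and listed in no cortical library. They were selected on peak calls. All intervals of the 2 cerebellar and 4 striatal peak lists were merged into 360561 regions, of which 56902 overlapped an interval in each of the 6 lists. Of these, 2352 overlapped no interval in any of the 8 cortical lists, which is 4.13% of the regions in all 6. All other regions in the 6 lists were in at least 1 cortical list, and 45716 were in all 8 and are called pan-brain regions here.

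ATAC-seq, in which a transposase cuts DNA where it is not wrapped tightly in nucleosomes, was done on bulk tissue of 2 adult males, bats 1 and 3. Each bat gave 1 library from cerebellum, from the caudate and putamen (the dorsal striatum), from 4 cortical areas (2A, ofM1, wM1 and PreM), and from liver, pectoralis muscle and testis, so there were 20 libraries and no other treatment or genotype. The study asked about regulatory elements that evolved together with vocal learning. No marker check of the tissue labels was analysed here, because it needs gene positions on the scaffolds of the peak lists.

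Open regions away from gene starts are often enhancers, short stretches of DNA where transcription factors bind and act on a gene that can lie far off. Most enhancers are open in some cell types only, and cerebellum and striatum are built from different neurons. The cerebellum is packed with excitatory granule cells and also holds inhibitory Purkinje cells, while most striatal neurons are inhibitory medium spiny neurons. Cortical tissue is dominated by excitatory projection neurons with a minority of inhibitory interneurons. All these tissues also hold astrocytes, oligodendrocytes, microglia and vessel cells, so a peak in a bulk library can come from any of them, and a small peak from few cells cannot be told apart from weak opening in many.

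Being listed depended on how deep each list went. All 14 brain lists stopped at 300000 rows, so their weakest entries had a -log10 p from 3.30 in ofM1 of bat 1 to 12.3 in caudate of bat 1. The weakest entries of the cerebellar lists had a -log10 p of 5.28 in bat 1 and 3.53 in bat 3. Absence from cortex therefore means that the region was not among the rows of the cortical lists, which ended at a -log10 p of 3.30 to 8.64. The peripheral lists went down to a -log10 p of 2.00 to 2.80, below the end of every cortical list. Presence in a peripheral list and absence from cortex were thus judged at unlike limits. Read depth does not come with the lists and is unknown.

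Muscle of bat 1 stood apart from the other peripheral libraries at striatal regions. Of 2806 regions among the 50000 strongest intervals of all 4 striatal lists and in no cerebellar or cortical list, it overlapped 39.1%, whereas muscle of bat 3 overlapped 10.1% and the liver and testis libraries overlapped 10.6% to 18.9%. At 4555 regions defined in the same way for cerebellum alone, muscle of bat 1 overlapped 20.5% and muscle of bat 3 overlapped 23.1%. At regions of cortex alone the shares were 19.6% and 18.1%, so of these 3 classes it stood apart at the striatal one. Whether this library holds striatal material or reads was not tested, and the shares below that average over or count the peripheral libraries are also given without it.

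The strength of the shared regions was moderate in each of the 6 lists. The value taken for a region was that of its strongest interval, and it was ranked as the percentile of -log10 p within its own list, since folds and -log10 p of different lists share no scale. In cerebellum, the median region lay at the 50.8th percentile of the list in bat 1 and at the 50.2nd in bat 3. In caudate it lay at the 55.6th in bat 1 and at the 59.5th in bat 3, and in putamen at the 58.7th and the 47.6th. The 6 medians lay close to the middle of their lists, and those of the 4 striatal lists enclosed both cerebellar ones.

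Averaged over lists, the median percentile was 50.5 ± 0.390 (SD, n = 2) in cerebellum and 55.3 ± 5.45 (SD, n = 4) in striatum. The difference of -4.82 points had p = 0.4 in a 2-sided exact permutation test. With 2 lists against 4 this test cannot give less than 0.0667, which is above the threshold used here. It could therefore not decide whether the divisions differed in strength, and no conclusion is drawn from it. The percentiles also come from the same lists in which the rule required each region. The difference was not larger than the SD of the striatal lists, of which putamen of bat 3 was the lowest. Without that list the difference was -7.42 points (exact permutation p = 0.1, the smallest that 2 lists against 3 can give).

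On the caller's own fold over background, the median region had 2.97 in cerebellum of bat 1 and 3.01 in cerebellum of bat 3. All intervals of these lists had medians of 2.96 and 3.03. In caudate the shared regions had 6.003 and 6.51 (whole lists 5.12 and 5.13), and in putamen 5.56 and 4.36 (4.55 and 4.41). The shared regions were thus near the middle of the fold scale in cerebellum and in putamen of bat 3, and above it in the other 3 lists. Pan-brain regions had median folds of 6.44 to 9.73 in the same 6 lists and lay at the 78.7th to 82.6th percentile. The lower rank of the shared regions describes the selection, which left out regions listed in cortex.

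**Figure D1:**
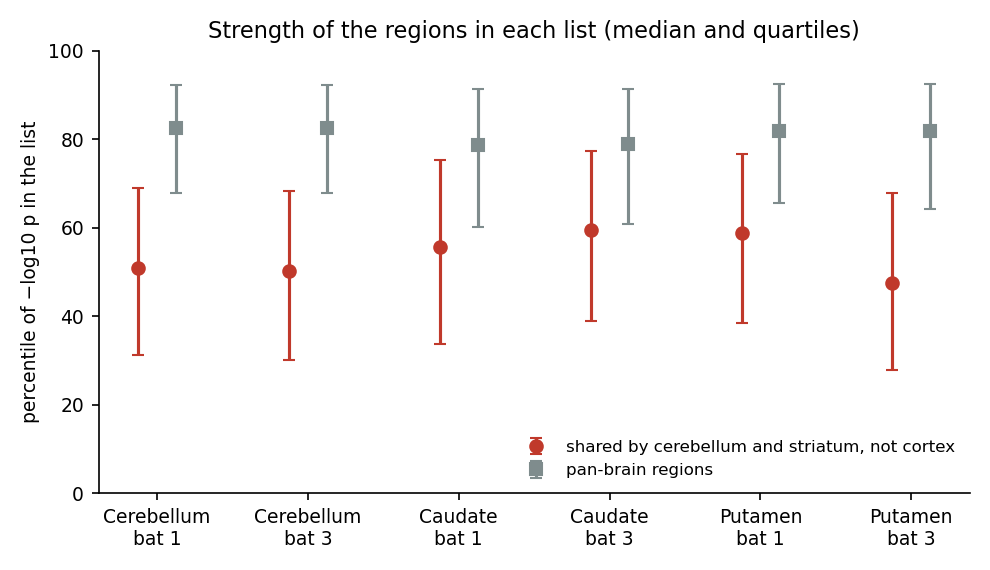
Percentile of -log10 p within each of the 6 peak lists (y axis) for the 2352 regions shared by cerebellum and striatum and not listed in cortex (red circles) and for the 45716 pan-brain regions (grey squares). Points are medians and bars span the quartiles over regions; the shared regions have medians of 47.6 to 59.5 and the pan-brain regions of 78.7 to 82.6.

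Cerebellum of bat 3 was the list most often missing among regions that failed the rule by a single list: 3184 regions were in 5 of the 6 lists and in no cortical one, and 1290 of them lacked cerebellum of bat 3, 1035 lacked cerebellum of bat 1 and 88 lacked putamen of bat 1. Without the requirement of cerebellum of bat 3 the number of shared regions was 3630, and without cerebellum of bat 1 it was 3373.

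The lowest percentile in any of the 6 lists was that of NW_023416284.1:86063966-86064360, which reached only a -log10 p of 3.54 in cerebellum of bat 3, the very end of that list. In caudate of bat 1 it had a fold of 2.64 and in cerebellum of bat 1 a fold of 2.34. On the other side of the cortical criterion, 954 regions were in all 6 lists and in exactly 1 cortical list, most often 2A of bat 1 (229), PreM of bat 1 (199) or 2A of bat 3 (154). Their cortical intervals were weak, with medians at the 8.62nd to 14.8th percentile of the 8 lists.

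Distances to the nearest cortical interval are a description, because they were not taken at other positions of the genome. The 8 cortical lists held 155151 to 196988 intervals each, so some interval can be near by density alone. The nearest cortical interval in any of the 8 lists lay at a median of 3364 bases from the edge of a shared region, and the middle quartiles ran from 1253 to 7353 bases. It was within 500 bases for 225 regions (9.57%), within 1000 bases for 476 (20.2%) and within 5000 bases for 1481 (63.0%). The most isolated region had no cortical interval for 83188 bases.

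Cortex had more lists than the other divisions, so the count was also taken with equal numbers of lists. With 2 libraries for each division (1 tissue per division in both bats, 8 choices of tissues), 4434 to 7219 regions were shared by cerebellum and striatum without cortex. Under the same choices 6926 to 9750 were shared by cerebellum and cortex without striatum, and 23624 to 26136 by striatum and cortex without cerebellum. Cerebellum shared more regions with striatum than with cortex in 1 of the 8 choices.

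A region's rank in cerebellum was nearly unrelated to its rank in striatum. Across the 2352 regions, Spearman's rho between the mean cerebellar and the mean striatal percentile was -0.038, and it lay between -0.058 and -0.0086 for the 8 pairs of a cerebellar and a striatal list. Lists of the same division ranked the regions alike, with rho of 0.723 between the cerebella of the 2 bats and of 0.747 to 0.910 between striatal lists. Across pan-brain regions, rho between cerebellum and striatum was 0.598. These are descriptions across regions of the same lists, and regions are not independent replicates.

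**Figure D2:**
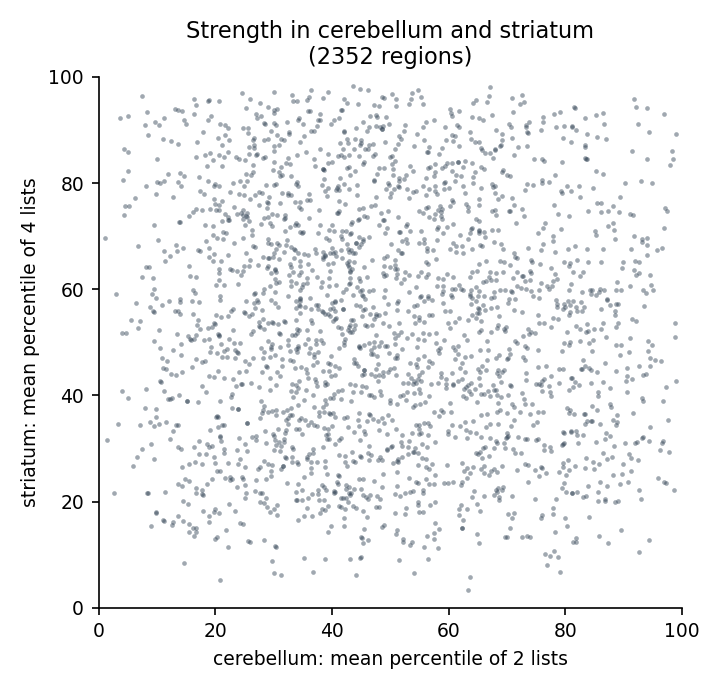
Mean percentile of -log10 p in the 2 cerebellar lists (x axis) against the mean in the 4 striatal lists (y axis), 1 point for each of the 2352 shared regions. The points fill the whole field with no diagonal (rho -0.038), and few lie in the upper right corner, where regions are strong in both divisions.

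Some regions ranked higher in all lists of 1 division than in all lists of the other, by any margin. Against all regions in the 6 lists, a smaller share led in cerebellum and a larger share in striatum. Both cerebellar percentiles were above all 4 striatal ones in 639 regions (27.2%, against 35.2% of all regions in the 6 lists). All 4 striatal percentiles were above both cerebellar ones in 809 regions (34.4%, against 27.9%), and the order was mixed in 904 (38.4%). Calling an interval strong when it was among the 50000 strongest of its list, 362 regions (15.4%) were strong in both cerebellar lists and 434 (18.5%) in all 4 striatal lists, where 54.1% and 45.4% of all regions in the 6 lists were. Only 47 (2.00%) were strong in all 6, where 35.3% of all regions in the 6 lists were, and 1082 (46.0%, against 19.8%) were strong in none. Absence from the cortical lists is part of the rule, so these counts are given beside the background without a test.

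The 47 regions strong everywhere were led by NW_023416295.1:56424260-56425673, a region of 1414 bases of which 874 were covered in all 6 lists. Its folds were 13.35 and 9.40 in cerebellum (bats 1 and 3), 13.2 and 13.4 in caudate, and 14.1 and 11.1 in putamen. It was above the 92nd percentile of every list, and its nearest cortical interval was 4546 bases away. The summits of cerebellum and striatum were nevertheless 191 to 201 bases apart in the 4 comparisons within a bat.

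Next came NW_023416284.1:112294015-112295589, with folds of 9.37 and 8.55 in cerebellum, 14.1 and 14.6 in caudate, and 14.9 and 11.3 in putamen. Its nearest cortical interval was 15154 bases away. Here too the summits lay apart, by 154 to 165 bases. Both regions were thus strongly open in both divisions, with the highest point at different places.

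The 10 regions with the highest weakest percentile (83.8 to 92.3) included both layouts. In 8 of them the cerebellar and striatal summits were 154 to 846 bases apart. At NW_023416308.1:97091216-97093164 they were 840 to 846 bases apart, with folds of 20.3 and 16.1 in cerebellum and 6.93 to 11.7 in striatum, and a cortical interval lay 312 bases away. In the other 2 the summits coincided. NW_023416290.1:49760018-49760770 had summits 7 to 13 bases apart, with folds of 8.16 and 7.49 in cerebellum and 14.9 to 18.7 in striatum. NW_023416307.1:12155200-12155951 had summits 9 to 23 bases apart, with folds of 11.9 and 10.6 in cerebellum and 13.1 to 16.6 in striatum. These compact regions of 753 and 752 bases are the 2 of the 10 in which cerebellum and striatum had their strong peak at the same place.

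At the other extreme were regions with a large peak in 1 division and a trace in the other. NW_023416284.1:138922639-138923683 had folds of 21.5 and 18.01 in cerebellum and 3.15 to 3.42 in striatum, and no peripheral list held it. NW_023416288.1:78053114-78054377 was the reverse, with folds of 2.02 and 2.18 in cerebellum and 20.4, 20.3, 22.6 and 13.7 in caudate and putamen of bat 1 and caudate and putamen of bat 3. Strong in both cerebellar lists and in no striatal list were 248 regions, and strong in all 4 striatal lists and in no cerebellar list were 361. The first group made up 10.5% of the shared regions (10.7% of all regions in the 6 lists) and the latter 15.3% (7.03%). In most of them the other division had a middling peak, with a median mean percentile of 39.7 in striatum for the 248 and of 41.7 in cerebellum for the 361, and the middle quartiles ran from 27.9 to 52.3 and from 27.6 to 53.9.

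The highest cerebellar and striatal summits within a region were often at different places. Only the highest summit of an interval was kept. Of the strongest intervals over the shared regions, 45.1% (cerebellum of bat 3) to 53.8% (caudate of bat 3) had more than 1 called summit. Their lower summits were not compared, so they may lie closer. The summit, the base with the highest signal of the strongest interval, lay at a median of 208 bases (caudate) and 207.5 bases (putamen) from the cerebellar summit in bat 1. In bat 3 the medians were 222 and 208 bases. Their mean was 211 ± 7.09 bases (SD, 4 comparisons within a bat, which share 2 cerebellar lists). The summits of the 2 cerebella were a median of 22 bases apart, and those of striatal lists 8 to 14 bases. Cerebellar summits repeated less well, with an upper quartile of 195 bases. They were within 100 bases in 67.8% of the shared regions, against 85.8% to 92.6% for pairs of striatal lists. For the 2 cerebella in pan-brain regions this share was 88.9%. In pan-brain regions the median distances between cerebellar and striatal summits had a mean of 16.5 ± 1.29 bases (SD, 4 comparisons), although these regions were slightly wider (median 1112 bases, against 1084.5).

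Summits were within 100 bases of each other in all 4 comparisons in 530 shared regions (22.5%), against 63.6% of all regions in the 6 lists and 69.7% of pan-brain regions. They were more than 200 bases apart in all 4 in 899 (38.2%), against 12.9% of all regions in the 6 lists and 9.82% of pan-brain regions. The 530 regions were narrower, with a median of 781.5 bases against 1327 for the 899. Among regions strong in both lists of a comparison, 81 to 114 per comparison, the summits were no closer, with a mean of the 4 medians of 272.5 bases.

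**Figure D3:**
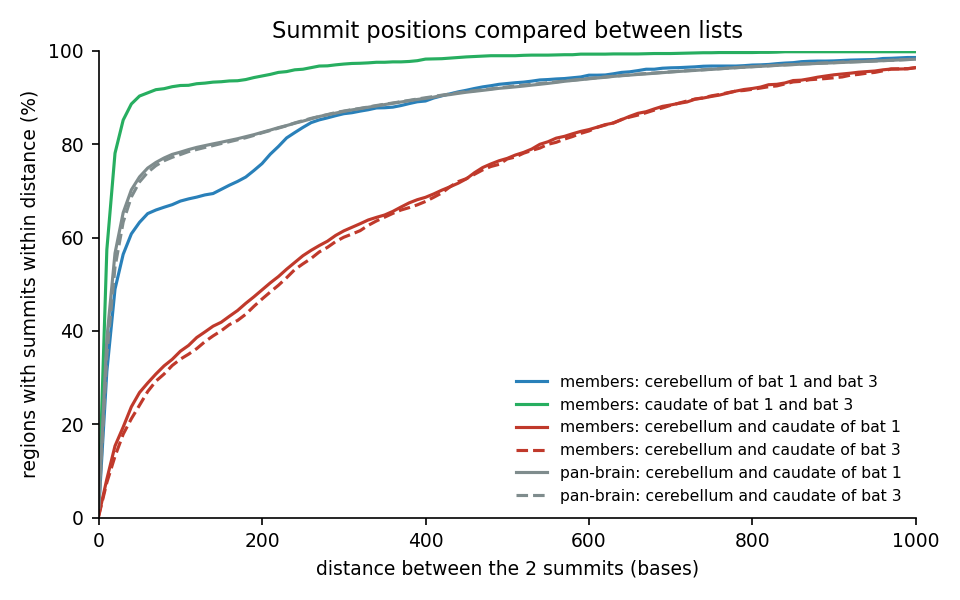
Share of regions (y axis, %) whose 2 summits lie within a given distance (x axis, bases), for pairs of lists. The cerebellum to caudate curves of the shared regions (red; bat 1 solid, bat 3 dashed) rise far more slowly than those between the 2 cerebella (blue), between the 2 caudates (green) and between cerebellum and caudate in pan-brain regions (grey).

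In 414 regions (17.6%) no base was covered in all 6 lists, although intervals of some of the lists can overlap there. Among pan-brain regions, 98.0% had a base common to all 6 lists, and among shared regions 82.4% (1938) did. The common stretch of the shared regions had a median of 286 bases. With the 1938 regions alone, the mean of the 4 median summit distances was 161 bases. NW_023416295.1:36175412-36176597 is a region without a common base: it had folds of 2.19 and 2.15 in cerebellum and 12.8 to 17.2 in striatum, with summits 5 and 10 bases apart in bat 1 and 452 and 469 bases apart in bat 3.

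The number of cortical lists that hold a region separated these features by degree. Of the regions in all 6 cerebellar and striatal lists, 954, 846, 848, 1005, 1179, 1524 and 2478 were in 1, 2, 3, 4, 5, 6 and 7 cortical lists. The mean of the 4 median summit distances was 211 bases with 0 cortical lists, 188 with 1, 121 with 2, 74.3 with 3 and 58.3 with 4. It went on falling to 31.6 with 7 and 16.5 with 8. The share of summits within 100 bases went from 35.7% with 0 cortical lists through 56.2% with 4 to 78.7% with 8. The mean peripheral share went from 22.7% with 0 cortical lists to 35.2% with 7 and 62.9% with 8, and without muscle of bat 1 from 20.8% to 33.6% and 60.2%. The correlation of strength behaved otherwise: rho was between -0.064 and 0.029 for every number from 0 to 7 and 0.598 with 8.

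**Figure D4:**
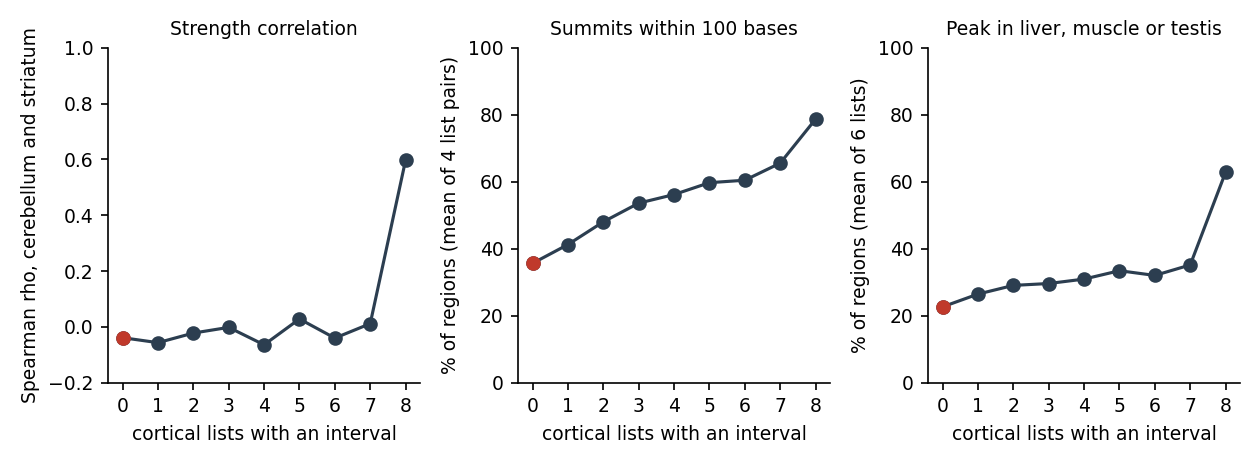
Regions in all 6 cerebellar and striatal lists by the number of the 8 cortical lists that hold them (x axis, red point: the shared regions absent from cortex). Left, Spearman's rho between cerebellar and striatal strength; middle, share of summits within 100 bases (mean of 4 list pairs); right, share with a peak in a peripheral list (mean of 6 lists). The middle panel climbs by degree to 78.7% with 8 lists, the right panel goes from 22.7% to 35.2% with 7 lists and 62.9% with 8, and the left panel stays near 0 until the last point.

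Liver, muscle and testis played no part in the selection. Of the 2352 shared regions, liver of bat 1 overlapped 547 (23.3%) and liver of bat 3 overlapped 336 (14.3%). Muscle overlapped 750 (31.9%) in bat 1 and 591 (25.1%) in bat 3, and testis 510 (21.7%) and 466 (19.8%). Of all regions in the 6 lists, in the same order of libraries, 32.4%, 51.1%, 68.5%, 67.0%, 61.4% and 58.0% were overlapped, so each of the 6 libraries overlapped a smaller share of the shared regions.

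The mean share was 22.7% ± 5.84 (SD, n = 6 libraries), and in pan-brain regions it was 62.9% ± 15.2. The difference of -40.2 percentage points had the same direction in 6 of 6 libraries, with p = 0.0312 in a 2-sided exact sign-flip permutation test, the smallest that 6 libraries can give, and an adjusted p of 0.0938 over 3 comparisons (Benjamini-Hochberg), which did not pass 0.05. Without muscle of bat 1 the mean share was 20.8% ± 4.15 (SD, n = 5) and the difference -39.4 points. The 6 libraries come from 2 animals and 3 tissues. Regions were also put in bands of strength, cut at the quartiles of the shared regions' mean percentile. From weak to strong, the shares were 18.7%, 21.4%, 22.8% and 27.8% in shared regions. In pan-brain regions they were 36.7%, 39.0%, 42.4% and 69.9%, and the shared regions were lower in 6 of 6 libraries within each band. Without muscle of bat 1 the shares were 18.2%, 20.9%, 20.9% and 23.4% against 35.5%, 37.5%, 40.3% and 67.0%. Strength is matched only roughly by these bands. The strongest band runs from the 65.0th to the 100th percentile and holds 588 shared and 34634 pan-brain regions, whose strength within it was not matched.

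The regions shared by other pairs of divisions were closer. Those of cortex and striatum absent from cerebellum (16717) had a mean peripheral share of 27.03% ± 6.87. The shared regions minus this class gave -4.35 points, with a lower share in 5 of 6 libraries (exact permutation p = 0.156, adjusted p = 0.219). Those of cerebellum and cortex absent from striatum (4768) had 25.7% ± 3.82, a difference of -3.07 points, with the shared regions lower in 4 of 6 libraries (exact permutation p = 0.219, adjusted p = 0.219). Neither difference was larger than the spread between libraries. Without muscle of bat 1 the 2 differences, shared regions minus the others, were -4.39 and -4.46 points.

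**Figure D5:**
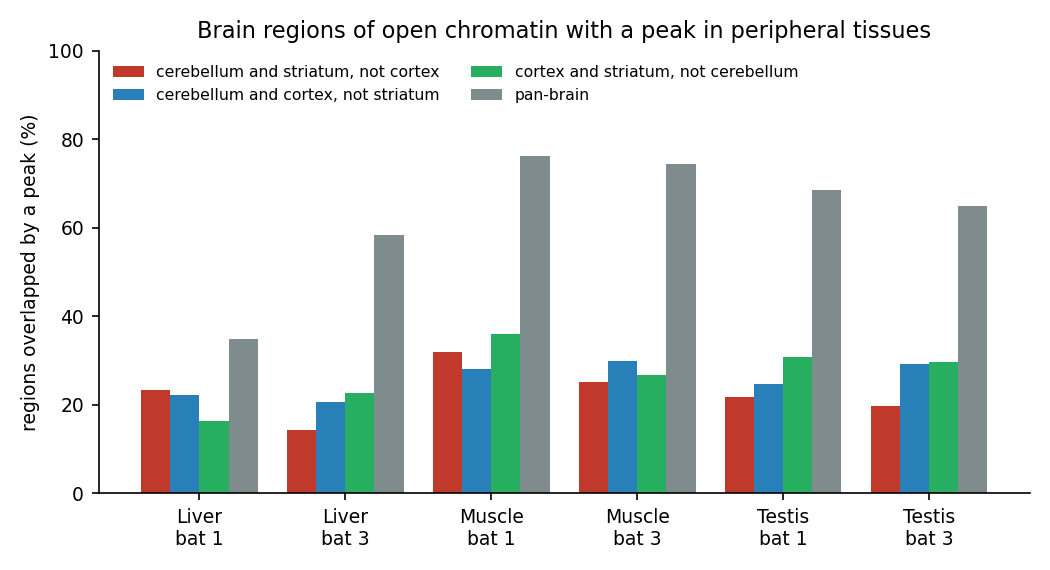
Share of regions overlapped by a peak (y axis, %) in each of the 6 peripheral libraries, for 4 classes of brain regions. Bars start at 0, and each is a single library with no error bar; the pan-brain bars (34.9% to 76.2%) are the highest in every library, and the bars of the shared regions (14.3% to 31.9%) overlap in range with those of the other pairwise classes.

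Counted per region, 774 shared regions (32.9%) were in no peripheral list, 665 in 1, 482 in 2, 236 in 3, 127 in 4, 53 in 5 and 15 in all 6. Of pan-brain regions, 6.24% were in none and 22.2% in all 6. Among the 5 lists other than muscle of bat 1, 969 shared regions (41.2%) were in none and 23 in all 5. Overlap was repeated between the bats in part: 105 of the shared regions were in both liver lists, 278 in both muscle lists and 240 in both testis lists. These are 13.5%, 26.2% and 32.6% of the regions in either list of the tissue, against 40.1%, 76.2% and 74.3% for pan-brain regions. Such shares also depend on how many regions each single list overlapped, which was a larger part of the pan-brain regions. Whether repetition differed beyond that was not tested. Peripheral peaks at shared regions were about as strong as their lists as a whole. Their median -log10 p was 3.51 and 3.84 in liver (whole lists 3.38 and 3.86), 4.02 and 3.77 in muscle (4.02 and 4.27), and 4.65 and 3.69 in testis (4.75 and 4.02). With only the 50000 strongest peripheral peaks of each library, 3.40% to 7.53% of the shared regions were overlapped.

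NW_023416286.1:59298705-59299893 had the highest lowest percentile over the 6 lists among the regions in no peripheral list, with folds of 7.16 and 5.84 in cerebellum, 12.2 and 12.03 in caudate, and 10.6 and 7.46 in putamen (bats 1 and 3). It was followed by NW_023416312.1:85173900-85175467, with folds of 6.73 to 10.2 in the 6 lists, summits 1076 to 1088 bases apart and no base common to all lists. Among the 15 regions in all 6 peripheral lists, NW_023416307.1:9947052-9947930 had the strongest cerebellar peak, with folds of 22.8 and 19.3 there and 3.63 to 5.98 in striatum. Its summits in the 2 divisions were 6 to 25 bases apart, and the nearest cortical interval was 40566 bases away. It was listed in cerebellum, striatum, liver, muscle and testis of both bats but in no cortical library. The peripheral lists reached a lower -log10 p than the cortical ones.

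Overlap with muscle of bat 1 followed striatal strength. In quartiles of the shared regions by their mean striatal percentile, from weak to strong, it overlapped 21.8%, 24.2%, 26.9% and 54.8% of the regions. Muscle of bat 3 overlapped 24.7%, 24.5%, 26.7% and 24.7% of the same quartiles. Liver and testis of bat 1 went from 19.2% to 28.9% and from 20.4% to 27.9% between the weakest and the strongest quartile, and liver and testis of bat 3 from 14.97% to 13.6% and from 21.1% to 19.4%. By cerebellar strength, muscle of bat 1 overlapped 29.3% to 33.2% of each quartile. The part of muscle of bat 1 standing apart at striatal regions in this pattern was not tested.

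The summit position gave a similar picture. At the 899 regions with summits far apart in all 4 comparisons, muscle of bat 3 covered the cerebellar summit of bat 1 alone in 111 and the caudate summit of bat 1 alone in 13. Testis covered the cerebellar summit alone in 109 (bat 1) and 98 (bat 3) and the caudate summit alone in 26 and 14. The liver lists had 63 and 45 at the cerebellar summit alone, and 34 and 14 at the caudate summit alone. Muscle of bat 1 differed, with 75 at the cerebellar and 105 at the caudate summit alone. In the other 5 peripheral libraries, then, a peak at such a region covered the cerebellar summit alone more often than the caudate summit alone. Putamen summits were not scored, and neither were regions listed in cortex whose summits were as far apart. Whether the excess at the cerebellar summit is particular to the shared regions was therefore not tested.

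Shared regions were spread unevenly over the scaffolds. They made up 7.27% of the regions in all 6 lists on NW_023416286.1 (213 of 2929), 6.18% on NW_023416285.1 and 5.73% on NW_023416307.1, and 0.758% on NW_023416289.1 (11 of 1452). Regions shared by cortex and striatum ran the other way on these scaffolds: NW_023416289.1 held 5.48% of that class and 0.468% of the shared regions, and NW_023416286.1 held 3.37% and 9.06%. Of the regions of cerebellum and cortex these scaffolds held 1.15% and 6.54%, and of pan-brain regions 3.00% and 4.67%. The median gap from a shared region to the next was 255 kb, and 4.03% of gaps were under 10 kb.

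A few stretches held many shared regions. Of 1898 windows of 1 Mb with a region in all 6 lists, 938 held a shared region, and 133 windows with at least 5 held 823 of them (35.0%). NW_023416284.1:122000001-123000000 held 16 among 41 regions in all 6 lists (39.0%), with 1 region of cortex and striatum and 1 of cerebellum and cortex. NW_023416286.1:76000001-77000000 held 16 of 45, NW_023416307.1:86000001-87000000 held 15 of 47, and NW_023416307.1:84000001-85000000, on the same scaffold, held 11 of 45. In NW_023416311.1:62000001-63000000 the shared regions were 8 of only 15 (53.3%). These windows were picked for their counts, which are a description.

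Median strength in cerebellum and in striatum was close in all but 1 of the dense windows below. On NW_023416284.1 the 16 regions had median percentiles of 47.2 in cerebellum and 48.0 in striatum, and summits coincided in all 4 comparisons in 1 of them. The medians were 42.7 and 46.6 in NW_023416286.1:76000001-77000000, and 54.6 and 57.0 in NW_023416307.1:84000001-85000000. On NW_023416307.1 the 15 regions between 86005542 and 86867277 were stronger in cerebellum, with median percentiles of 66.5 and 35.3. Both cerebellar lists were above all 4 striatal lists in 9 of these 15, summits coincided in 8, and 11 were in no peripheral list. Which genes lie in these windows was not analysed here.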

How the data were processed

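ATAC-seq of nuclei from cryopreserved bulk tissue was used, with 1 deposited peak list per library (20 libraries). Bowtie2 and MACS2 were used per the submitters' processing notes, which list no role for either; their settings and the build are not given. In the deposited narrowPeak lists the authors give each peak's position, fold enrichment (a ratio to background), -log10 p and summit. The values are the authors' own and were used to rank and filter within a list. No counts come with them, so depth is unknown and no interval on it is given.

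Rows with the same interval were collapsed, keeping the highest -log10 p. Intervals were merged and overlapped by at least 1 base, in Python 3.11.15 with pandas 2.3.3 and numpy 2.4.6 (figures, matplotlib 3.10.9). Coordinates are counted from 1. The steps were tested on simulated lists. Lists of different libraries were compared by percentile, with 2-sided exact permutation tests over libraries and Benjamini-Hochberg adjustment over the 3 peripheral comparisons, at a threshold of 0.05.

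The regions, comparators and tests were chosen with earlier results of these data known. Regions named singly were the 10 with the highest lowest percentile over the 6 lists; the other named regions and windows were chosen after their values were seen. The bat number pairs libraries across tissues, because it names the animal. As a check, the differences between the bats in percentile correlated across the 2352 regions with r = 0.022 between cerebellum and caudate, 0.018 between cerebellum and putamen and 0.298 between caudate and putamen. No 2 brain lists shared more than 0.337% of their intervals exactly. With 1 library per tissue and bat, p-values measure the spread between libraries of 2 animals. The 12 RNA libraries (Salmon 1.5.2, per the submitters' processing notes) hold no cerebellum and were not used here. Gene names, distances to gene starts and sequences were not analysed here, because no table used here places genes on these scaffolds.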

Additional observations from a re-analysis of the deposited data

How the results depend on the processing

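The number of shared regions depended on where the lists end. It was 2352 as reported, 47 when only the 50000 strongest intervals of the 6 lists counted as present, 17754 when only the 50000 strongest of each cortical list counted against a region, and 718 when every brain list ended at a -log10 p of 12.3. With each list limited to the 155151 strongest intervals it was 2044, with a base common to all 6 lists 1938, and with no cortical interval within 500 bases 2127. Leaving out libraries gave 2433 to 5791: 5791 without bat 1, 5757 without bat 3 and 3630 without cerebellum of bat 3. More libraries required means fewer regions by construction.

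The difference in percentile between cerebellum and striatum ran from -8.00 to -3.45 over 10 alternatives. With the replicate block, in which labels were exchanged within a bat, it was -4.82 (exact permutation p = 0.444, smallest possible 0.111). The exact test cannot go below 0.0667 without the block either, so no call could change at 0.05; ranking among the same number of strongest intervals gave -8.00 with that smallest p. The mean of the median summit distances was 272.5 bases among the 50000 strongest intervals and 161 bases for regions with a common base. Leaving out a bat gave 208 to 215. The common-base setting and leaving out a bat were chosen after seeing the data. The cause of the changes was not tested. Fewer regions were used with the strongest intervals (81 to 114 per comparison) and with a common base (1938). The 3 differences in peripheral share kept their sign under 9 alternatives each: -6.61 to -1.45 points against regions of cortex and striatum, -4.46 to -0.672 against cerebellum and cortex, and -46.4 to -24.4 against pan-brain regions. No adjusted p of the exact permutation tests was below 0.05 in any of these settings. With a library left out, the smallest possible p is above 0.05, so those settings could not have changed a call. The strength quartiles and the choices of 2 libraries per division were added after seeing the data. So were the peripheral shares without both liver libraries and the shares without muscle of bat 1. The share of regions near gene starts and its alternatives were not run. Peak lists without depth limit every statement of absence to the rows listed.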
